A study of Mus musculus with 8 samples.

Results

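Interferon response genes were followed in 8 mouse liver libraries taken 48 hours after partial hepatectomy. The 9 genes were taken by name, with earlier results of these data known: the transcription factor genes Stat2, Irf1, Irf7 and Irf9, the antiviral genes Isg15, Ifit1, Ifit3 and Rsad2, and Usp18, a brake on the pathway. All 9 were among the 19055 gene symbols with values, and all 9 passed the filter on low values, which 13704 genes passed (3 libraries or more at 10 or above). The comparison set 5 livers labelled URI(+/D)Hep against 3 livers labelled URI(+/+)Hep, the wild-type littermates. URI, a prefoldin-like protein encoded by Uri1, was deleted in hepatocytes in the first group by a CreERT2 under serum albumin control, with the genotype written +/D. Mice of both groups were 8 to 9 weeks old and had received tamoxifen for 1 week, per the labels. The labels leave out whether the littermates carried the Cre. Nothing in the labels says whether animals were pooled, so the p-values measure the spread between these 8 libraries.

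Interferons are secreted proteins that warn cells of viral nucleic acid. Type I interferon binds its receptor on the cell surface, the kinases Jak1 and Tyk2 become active, and Stat2 and Irf9 act within a complex called ISGF3. This complex binds a DNA element, the interferon-stimulated response element, in the promoters of antiviral genes. Interferon gamma acts through another element, the gamma-activated sequence, as in the promoter of Irf1. In the liver both hepatocytes and resident macrophages can respond.

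Depth ranged from 4294494 to 4800694 reads in the URI(+/D)Hep libraries and from 3838674 to 4337966 reads in the URI(+/+)Hep libraries, recovered from the deposited values, with 3 reads worth 2.65 to 3.60 normalized reads. Uri1 averaged 384 ± 42.7 normalized reads in URI(+/D)Hep livers and 384 ± 79.3 in URI(+/+)Hep livers (SD, n = 5 and 3, exact 2-sided permutation p = 0.982, where 0.0179 is the smallest possible), and the part of the gene that was deleted is not given, so the counts do not check the labels. Transcripts specific to a sex were mixed. Xist, the RNA of the inactive X chromosome, lay between 1217 and 2357 normalized reads in the URI(+/D)Hep livers, at 1298 in URI(+/+)Hep 3 and at 9.59 and 2.95 in URI(+/+)Hep 1 and 2. Of the Y chromosome, Kdm5d, Uty, Ddx3y and Eif2s3y together gave 3.54 in URI(+/D)Hep 1, between 786 and 1002 in URI(+/D)Hep 2 to 5, and between 569 and 1558 in the URI(+/+)Hep livers. Thus 5 libraries, URI(+/D)Hep 2 to 5 and URI(+/+)Hep 3, held both kinds of transcript. Mki67, which dividing cells make, had 469, 333, 268, 586 and 49.5 in URI(+/D)Hep 1 to 5 and 24.0, 282 and 468 in URI(+/+)Hep 1 to 3. URI(+/D)Hep 5 and URI(+/+)Hep 1 therefore stood apart as the livers with the least Mki67. The labels give the cell type as epithelial, but markers of other liver cells were present, and Kupffer cell and macrophage markers summed to between 6389 and 7863 normalized reads in URI(+/D)Hep livers and between 6250 and 7900 in URI(+/+)Hep livers.

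The promoters show which genes carry the letters that ISGF3 is known to bind. RefSeq promoter windows of the build GRCm38.p6 were found for 8 of the 9 genes, all but Usp18, and the 250 bases before each annotated start were searched on both strands for GAAA, any 2 bases and GAAA again (read from the other strand, TTTC, any 2 bases and TTTC), the core of the interferon-stimulated response element. Of the 8 genes, 5 held a match, against 2.98% of the 32851 windows of the same length and 3.46% of the 27025 genes in the table. These stretches are shown 5′ to 3′ along the gene's strand, with the matches in capitals.
Isg15: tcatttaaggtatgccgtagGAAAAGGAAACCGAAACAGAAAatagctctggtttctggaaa
Ifit1: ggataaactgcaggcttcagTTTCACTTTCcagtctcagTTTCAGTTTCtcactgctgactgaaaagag
Ifit3: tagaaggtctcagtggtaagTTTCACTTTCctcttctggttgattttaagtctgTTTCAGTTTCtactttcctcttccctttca
Rsad2: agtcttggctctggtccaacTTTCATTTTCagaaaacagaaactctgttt
Stat2: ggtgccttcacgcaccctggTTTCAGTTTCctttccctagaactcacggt
The Isg15 stretch, chr4:156200855-156200916 on the minus strand, held 3 matches that overlap one another and form an unbroken row. Ifit1 (chr19:34640765-34640833, plus strand) and Ifit3 (chr19:34583353-34583436, plus strand) held 2 matches each. Rsad2 (chr12:26456543-26456592, minus strand) and Stat2 (chr10:128270256-128270305, plus strand) held 1 match each. The windows of Irf1, Irf7 and Irf9 held none, which says only that these letters are not in those windows.

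The other element was looked for as well. TTCNNNGAA, the palindromic core of the gamma-activated sequence, was searched after the values were seen. It was in the window of 1 of the 8 genes, Irf1, at 1 of its 2 annotated starts, and in 7.02% of all windows and 8.13% of genes, so the count over the 8 genes is near the background. The Irf1 stretch is chr11:53769904-53769952 of GRCm38.p6 on the plus strand. It was chosen for display because the levels of Irf1 followed another order over the livers than those of the genes above. A link between this motif and the levels was not tested.
Irf1: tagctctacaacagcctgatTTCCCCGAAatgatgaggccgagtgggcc
Ifit3 and its paralogue Ifit3b are shown together because they are close copies. The Ifit3b stretch (chr19:34607749-34607832, plus strand) had the same letters as that of Ifit3.
Ifit3b: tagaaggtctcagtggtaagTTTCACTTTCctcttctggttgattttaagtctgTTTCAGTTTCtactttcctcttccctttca
Their longest annotated transcripts in GENCODE M21 aligned with 81.2% identity, and the last 300 bases of each with 48.3%, where reads of 3′ libraries fall. These transcripts differ in length (1745 bases for Ifit3 and 2000 for Ifit3b), so their ends need not be matching stretches. The value for the ends thus does not show whether reads tell these genes apart. How the authors' counting treated reads that match both genes is not known here.

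The 4 transcription factor genes varied less between livers than the antiviral genes did. Stat2, the subunit of ISGF3 that activates transcription, stood at 484, 465, 480, 515 and 436 normalized reads in URI(+/D)Hep 1 to 5 and at 559, 481 and 548 in URI(+/+)Hep 1 to 3. The groups overlapped, since URI(+/+)Hep 2 lay among the URI(+/D)Hep livers. Irf9, the DNA-binding subunit of ISGF3, stood at 289, 248, 234, 298 and 197 in URI(+/D)Hep 1 to 5 and at 204, 258 and 320 in URI(+/+)Hep 1 to 3. URI(+/+)Hep 3 was highest, and URI(+/D)Hep 5 and URI(+/+)Hep 1 were lowest. In GENCODE M21, Irf9 overlaps Rnf31 on the same strand, so some of its reads may be of that gene. Irf7, which drives interferon alpha genes and is itself induced by interferon, stood at 217, 163, 133, 219 and 128 in URI(+/D)Hep 1 to 5 and at 205, 203 and 189 in URI(+/+)Hep 1 to 3. The URI(+/+)Hep values lay close together and inside the range of the URI(+/D)Hep livers. Irf1, a factor induced by interferon gamma that acts on antigen presentation genes, stood at 580, 517, 641, 614 and 687 in URI(+/D)Hep 1 to 5 and at 669, 551 and 661 in URI(+/+)Hep 1 to 3. URI(+/D)Hep 5, the lowest liver for the other 8 genes, was the highest for Irf1.

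The antiviral genes and Usp18 spread more widely within both groups. Isg15, a ubiquitin-like protein that is attached to other proteins, stood at 331, 251, 281, 527 and 187 normalized reads in URI(+/D)Hep 1 to 5 and at 221, 527 and 689 in URI(+/+)Hep 1 to 3. URI(+/+)Hep 1 lay among the low URI(+/D)Hep livers, and URI(+/D)Hep 4 lay among the high URI(+/+)Hep ones. Ifit1, which binds viral RNA that lacks the host's cap methylation, stood at 41.5, 35.2, 27.1, 72.1 and 24.7 in URI(+/D)Hep 1 to 5 and at 28.8, 50.2 and 80.5 in URI(+/+)Hep 1 to 3. Its spread was larger than counting error: the exact 95% Poisson interval was 56.9 to 90.1 normalized reads in URI(+/D)Hep 4 and 16.0 to 36.5 in URI(+/D)Hep 5. Such intervals cover counting error only. Ifit3, which works with Ifit1 in the same family, stood at 92.8, 73.1, 54.1, 103 and 37.6 in URI(+/D)Hep 1 to 5 and at 51.6, 85.7 and 103 in URI(+/+)Hep 1 to 3. The URI(+/+)Hep range lay wholly inside the URI(+/D)Hep range. Rsad2, or viperin, makes a nucleotide that stops viral polymerases, and stood at 327, 232, 236, 511 and 188 in URI(+/D)Hep 1 to 5 and at 259, 354 and 404 in URI(+/+)Hep 1 to 3. URI(+/D)Hep 4 was the highest liver and URI(+/D)Hep 5 the lowest, so here too one group enclosed the other. Usp18, which removes Isg15 from proteins and blocks the type I receptor, stood at 84.0, 63.0, 53.2, 99.3 and 41.5 in URI(+/D)Hep 1 to 5 and at 56.4, 104 and 111 in URI(+/+)Hep 1 to 3. URI(+/+)Hep 2 and 3 were the highest livers, and URI(+/+)Hep 1 lay among the URI(+/D)Hep ones. Some reads of Irf1, Irf7 and Usp18 may belong to genes annotated on the other strand at the same place, since the strand setting of the counting is not given.

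**Figure D1:**
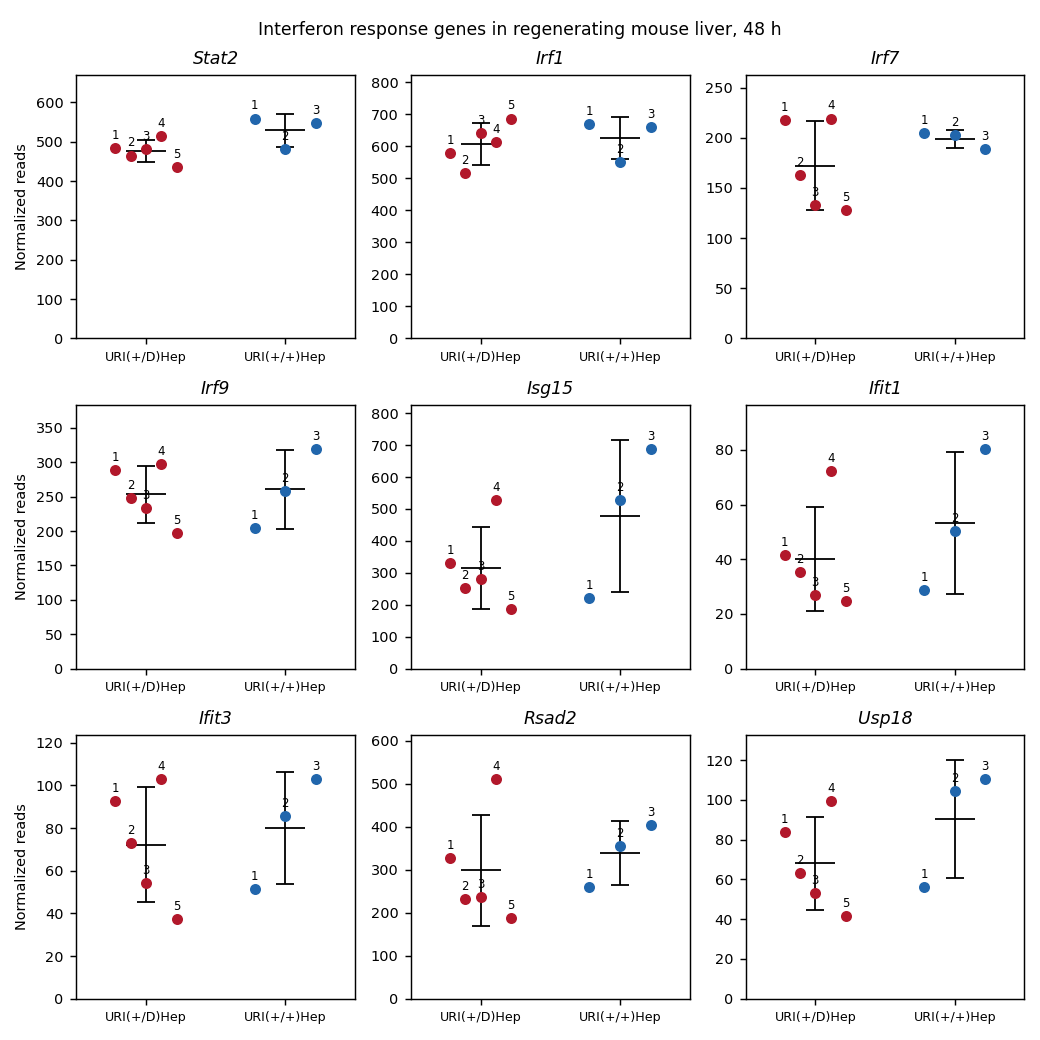
Normalized reads of each of the 9 genes (y axis, from 0) in 5 URI(+/D)Hep livers (red, left) and 3 URI(+/+)Hep livers (blue, right). Points are livers with their replicate numbers, and bars are mean and SD. The groups overlap for every gene, and Isg15 reaches from 187 in URI(+/D)Hep 5 to 689 in URI(+/+)Hep 3.

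The antiviral genes and Usp18 followed a shared order over the livers. URI(+/D)Hep 5 was lowest for 8 of the 9 genes, all but Irf1, and URI(+/D)Hep 4 or URI(+/+)Hep 3 was highest for 7, all but Stat2 and Irf1. The highest liver stood 2.66 to 3.68 times above the lowest for Isg15, Ifit1, Ifit3, Rsad2 and Usp18, with a median of 2.74, against 1.28 to 1.72 times for the 4 factor genes. Over the 8254 tested genes with a mean within the range of the 9 genes, the median ratio was 1.76. Over the 8 livers, the 10 pairs among Isg15, Ifit1, Ifit3, Rsad2 and Usp18 had Pearson's r between 0.87 and 0.95 on the log2(value + 1) scale. Irf9 had r between 0.84 and 0.96 with these 5 genes, Irf7 between 0.57 and 0.79, and Stat2 between 0.41 and 0.56. Irf1 had r between -0.47 and -0.14 with them. These values describe 8 libraries, and the genes share the library and its normalization.

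**Figure D2:**
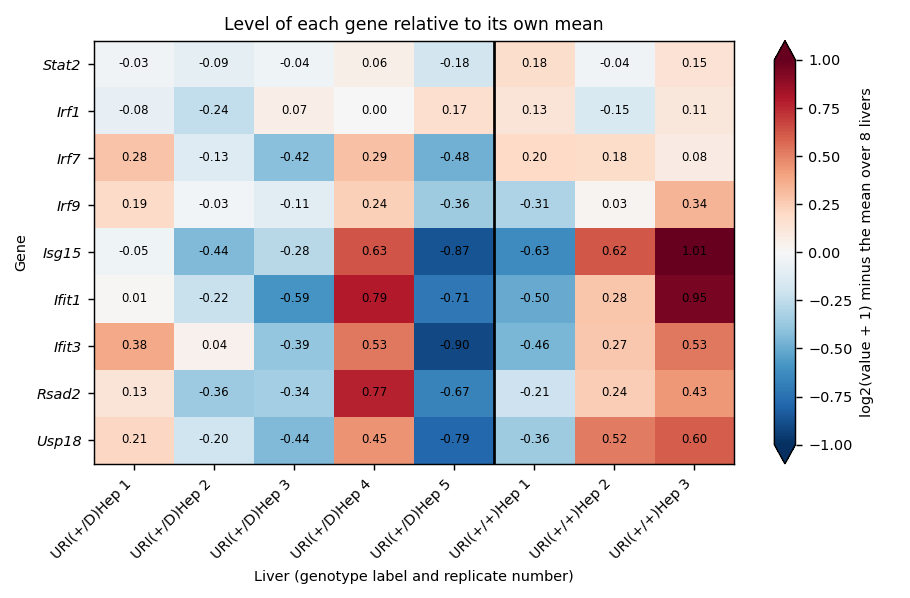
Level of each gene (rows) in each liver (columns, URI(+/D)Hep left of the line and URI(+/+)Hep right of it), as log2(value + 1) minus the gene's mean over the 8 livers. Red is above and blue below that mean, and the color scale ends at 1 in either direction. The antiviral genes and Usp18 are all below their means in URI(+/D)Hep 3, URI(+/D)Hep 5 and URI(+/+)Hep 1. They are all above their means in URI(+/D)Hep 4, URI(+/+)Hep 2 and URI(+/+)Hep 3, while Irf1 runs otherwise.

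The order followed Mki67 in part. The livers with the least Mki67, URI(+/D)Hep 5 at 49.5 and URI(+/+)Hep 1 at 24.0 normalized reads, were among the lowest 4 for Isg15, Ifit1, Ifit3, Rsad2 and Usp18, and URI(+/D)Hep 4, with the most Mki67 at 586, was among the highest 3. Other livers went otherwise: URI(+/D)Hep 3, with Mki67 at 268, lay below URI(+/+)Hep 1 for Ifit1, Rsad2 and Usp18. URI(+/D)Hep 2, with Mki67 at 333, lay below URI(+/+)Hep 1 for Rsad2. The part of cell division in these levels was not tested. Whole tissue was sequenced, so fewer cells of a type and less RNA per cell cannot be told apart.

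No interferon response gene passed the test between the genotypes. Of the 9 genes, limma called 0 at an adjusted p under 0.05, against 0.0146% of the 13704 genes tested, and 0 had an unadjusted p under 0.05, against 17.7%. On recovered reads, edgeR called 0 of 9, against 0.0219% of all genes, and DESeq2 called 0 of the 8 to which it gave an adjusted p, against 6.67%. The ranges of the groups overlapped for all 9, while 13.4% of the genes tested had ranges apart. All 9 log2 fold changes were negative, as were 50.2% of those over all genes tested, and the median was -0.24, against -0.0019 over all genes. Since the genes move together over livers, their shared sign is not 9 separate observations.

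The intervals show what sizes remain possible. Stat2 averaged 476 ± 28.8 normalized reads in URI(+/D)Hep livers and 530 ± 41.9 in URI(+/+)Hep livers, for a log2 fold change of -0.15 with SE 0.10 (limma adjusted p = 0.445). The 95% interval of its fold on the log2(value + 1) scale was 0.772 to 1.05. For Irf1 that interval was 0.802 to 1.17 around a log2 fold change of -0.05 (limma adjusted p = 0.874), and for Irf9 it was 0.735 to 1.30 around -0.03 (limma adjusted p = 0.945). Irf7 averaged 172 ± 44.3 in URI(+/D)Hep livers and 199 ± 8.81 in URI(+/+)Hep livers, for a log2 fold change of -0.24 with an interval of 0.615- to 1.16-fold (limma adjusted p = 0.562). Changes larger than these bounds lie outside the intervals of the factor genes.

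The antiviral genes allowed much wider intervals. Isg15 averaged 315 ± 129 normalized reads in URI(+/D)Hep livers and 479 ± 238 in URI(+/+)Hep livers, for a log2 fold change of -0.54 with SE 0.40 (limma adjusted p = 0.518). Its 95% interval ran from 0.366- to 1.30-fold. The log2 fold change of Ifit1 was -0.39 (interval 0.404- to 1.45-fold, limma adjusted p = 0.660), that of Ifit3 -0.18 (0.508- to 1.53-fold, 0.827) and that of Rsad2 -0.25 (0.521- to 1.36-fold, 0.707). Usp18 averaged 68.2 ± 23.3 in URI(+/D)Hep livers and 90.4 ± 29.6 in URI(+/+)Hep livers, for a log2 fold change of -0.41 with an interval of 0.454- to 1.25-fold (limma adjusted p = 0.541). A fold of 0.5 thus lay within the intervals of Isg15, Ifit1 and Usp18. The sizes depended on single livers without yielding a call. Isg15 had a log2 fold change of -1.02 without URI(+/+)Hep 1, of -0.20 without URI(+/+)Hep 3, of -0.85 without URI(+/D)Hep 5 and URI(+/+)Hep 1 together, and of -1.25 among the 5 libraries holding Xist beside Y-linked transcripts. The same gene had -0.85 with the Y-linked share of reads as a covariate. Among those 5 libraries URI(+/+)Hep 3 is the 1 liver of its group, and its spread is taken to equal that of the URI(+/D)Hep livers. Without URI(+/+)Hep 1 and without URI(+/+)Hep 3, the log2 fold change was -0.76 and -0.03 for Ifit1, and -0.71 and -0.24 for Usp18. With 1 liver left out, that of Rsad2 lay between -0.47 and -0.11.

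**Figure D3:**
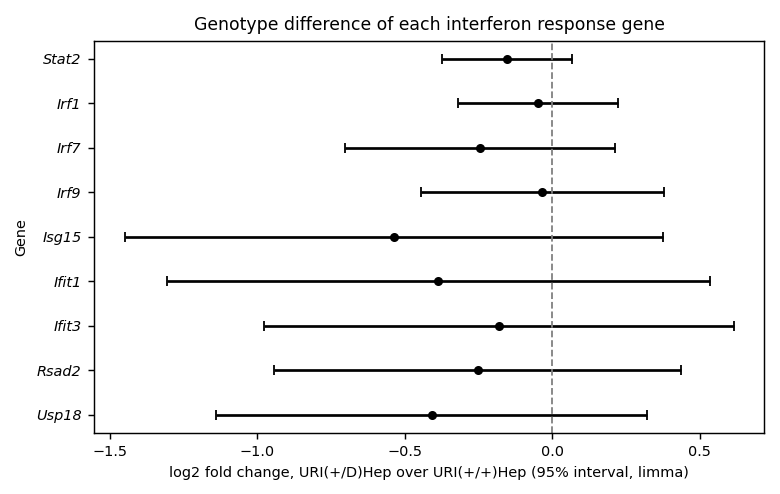
Log2 fold change of each gene, URI(+/D)Hep over URI(+/+)Hep, on the log2(value + 1) scale (x axis), with its 95% interval from limma. Every interval includes 0. Those of Stat2 and Irf1 are the narrowest and that of Isg15 reaches lowest, to -1.45.

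The rest of the pathway was described from lists by role, with 109 genes tested outside the 9. Limma and edgeR called 0 of the 109, limma counted 8 higher and 6 lower in URI(+/D)Hep livers at an unadjusted p under 0.05, and 9 of them had group ranges apart from each other (8.26%, against 13.4% of all genes tested). DESeq2 on recovered reads called 5 of the 72 to which it gave an adjusted p, against 6.67% of all genes. Mavs, Irf2 and Gbp7 were higher and Tap1 and H2-D1 lower in URI(+/D)Hep livers, and without URI(+/D)Hep 5 it called 0. Gbp7 and H2-D1 fall outside the rule for named genes and were chosen with their values known. Of the interferon ligands, 11 symbols were listed and were not analysed here, and the smallest total of any gene that was is 10 reads over the 8 libraries.

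Among 9 receptor and kinase genes, limma called 0, and the median log2 fold change was -0.018. Ifngr1, the ligand-binding chain of the interferon gamma receptor, averaged 299 ± 46.0 normalized reads in URI(+/D)Hep livers and 363 ± 6.72 in URI(+/+)Hep livers (limma adjusted p = 0.303). Ifngr2, the second chain of that receptor, averaged 130 ± 18.3 in URI(+/D)Hep livers and 159 ± 22.6 in URI(+/+)Hep livers, and Jak2, its kinase, averaged 324 ± 43.7 and 288 ± 30.4 in the same groups (limma adjusted p = 0.375 and 0.561).

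Among 14 nucleic acid sensors and adaptors, limma called 0, and the median log2 fold change was -0.14. Mavs, the mitochondrial adaptor of RNA sensors, stood at 166, 172, 147, 158 and 167 normalized reads in URI(+/D)Hep 1 to 5 and at 82.7, 115 and 120 in URI(+/+)Hep 1 to 3. All URI(+/D)Hep livers lay above all URI(+/+)Hep livers, with a log2 fold change of 0.62 (SE 0.15) that limma did not call (adjusted p = 0.115) and DESeq2 did (adjusted p = 0.0160). Ifih1, the RNA sensor that signals through Mavs, averaged 256 ± 46.2 in URI(+/D)Hep livers and 204 ± 7.35 in URI(+/+)Hep livers, with ranges that did not overlap (limma adjusted p = 0.313). Ticam1, the adaptor of the receptor Tlr3, averaged 89.3 ± 21.2 in URI(+/D)Hep livers and 127 ± 16.6 in URI(+/+)Hep livers (limma adjusted p = 0.235).

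Among 48 other antiviral effectors, limma called 0, 24 log2 fold changes were positive and 24 negative, and the median was -0.0095. Their levels followed the order of the 9 genes over the livers more than most genes: the median Pearson's r with the mean pattern of the 9 genes was 0.70, against 0.014 over all genes tested, as a description of 8 libraries. Oasl2, a member of the oligoadenylate synthetase family, was an exception in that its r was -0.06. It averaged 53.5 ± 3.25 normalized reads in URI(+/D)Hep livers and 34.3 ± 8.63 in URI(+/+)Hep livers, a difference of 0.65 on the log2 scale (SE 0.19, limma adjusted p = 0.150). The groups did not overlap. Samd9l averaged 65.3 ± 20.2 in URI(+/D)Hep livers and 36.0 ± 16.5 in URI(+/+)Hep livers, and Sp100, of the nuclear bodies named after Pml, 257 ± 34.6 and 211 ± 16.0 (limma adjusted p = 0.236 and 0.316).

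Among 26 targets of interferon gamma and Irf1, limma called 0, and the median log2 fold change was 0.19. Tap1, which carries peptides to class I molecules, averaged 153 ± 11.1 normalized reads in URI(+/D)Hep livers and 212 ± 19.9 in URI(+/+)Hep livers, a difference of -0.47 on the log2 scale (SE 0.12, limma adjusted p = 0.120). Ciita, the activator of class II genes, stood at 30.9, 45.4, 54.1, 55.3 and 55.4 in URI(+/D)Hep 1 to 5 and at 18.0, 23.6 and 29.0 in URI(+/+)Hep 1 to 3. The groups did not overlap, with 1.00 on the log2 scale between their means (SE 0.25, limma adjusted p = 0.124). Gbp3, a GTPase that acts on intracellular microbes, averaged 152 ± 26.4 in URI(+/D)Hep livers and 101 ± 13.8 in URI(+/+)Hep livers (limma adjusted p = 0.144). Markers of B and plasma cells, which use class II genes, had values for 5 of 8 listed genes and summed to between 89.8 and 194 in URI(+/D)Hep livers and between 16.8 and 78.3 in URI(+/+)Hep livers. Of these 5, only Ebf1 had groups apart, at 40.7 to 74.0 in URI(+/D)Hep livers and 6.00 to 37.5 in URI(+/+)Hep livers. The groups overlapped for Cd79b, Ms4a1, Pax5 and Jchain. Jchain stood at 115 in URI(+/D)Hep 5, the liver with the highest sum, and Pax5 was at 0 in URI(+/+)Hep 1. The part of these cells in the class II genes was not tested.

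Among 13 brakes on the pathway, limma called 0, and the median log2 fold change was 0.05. Irf2, which opposes Irf1 at shared sites, stood at 882, 771, 867, 973 and 793 normalized reads in URI(+/D)Hep 1 to 5 and at 507, 675 and 680 in URI(+/+)Hep 1 to 3. All URI(+/D)Hep livers lay above all URI(+/+)Hep livers, with 0.47 on the log2 scale between their means (SE 0.13, limma adjusted p = 0.135, DESeq2 adjusted p = 0.0309). Socs1, which inhibits the receptor kinases, stood at 16.8, 6.48, 24.2, 22.5 and 21.8 in URI(+/D)Hep 1 to 5 and at 57.6, 49.2 and 23.6 in URI(+/+)Hep 1 to 3. URI(+/+)Hep 1 and 2 were high and URI(+/+)Hep 3 lay among the URI(+/D)Hep livers, with -1.23 on the log2 scale between the means (SE 0.45, limma adjusted p = 0.215). URI(+/+)Hep 1 and 2 were also the libraries with the least Xist, and what that split contributes was not tested. Ptpn6, a phosphatase of receptor signalling, averaged 115 ± 15.2 in URI(+/D)Hep livers and 95.4 ± 19.1 in URI(+/+)Hep livers (limma adjusted p = 0.425).

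**Figure D4:**
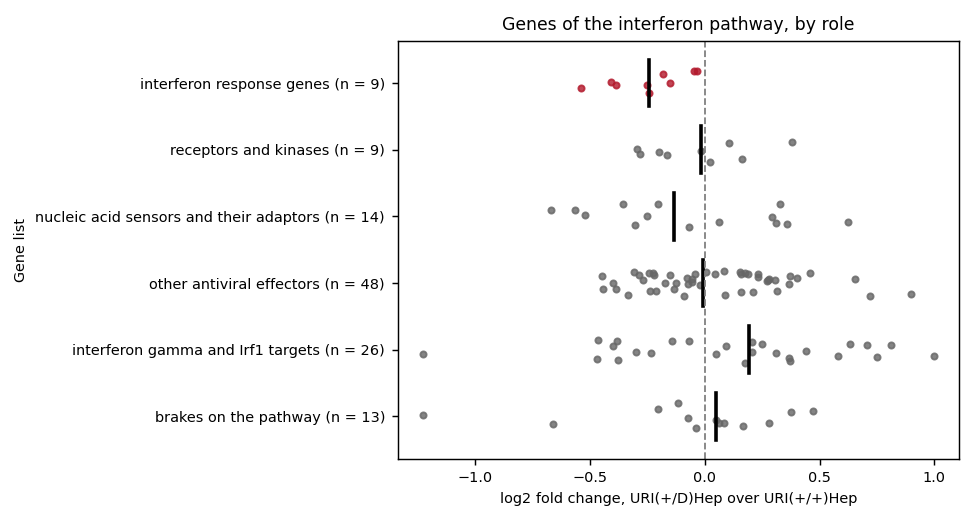
Log2 fold change, URI(+/D)Hep over URI(+/+)Hep (x axis), of each tested gene of the interferon pathway, by list (rows; n is the number tested, and Socs1 is in 2 lists). Points are genes, spread at random in height, and black bars are list medians. The 9 interferon response genes (red) all lie below 0 with a median of -0.24, and the 48 other antiviral effectors lie on either side of 0.

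Kupffer cell and macrophage markers followed the order of the antiviral genes in part. The 12 Kupffer cell and macrophage markers gave sums of 7863, 7559, 6975, 7802 and 6389 normalized reads in URI(+/D)Hep 1 to 5 and of 6524, 7900 and 6250 in URI(+/+)Hep 1 to 3. That sum has URI(+/+)Hep 3 lowest, and 1 gene decided this: Marco, a scavenger receptor, had 1276 in URI(+/+)Hep 3 and 3326 in URI(+/+)Hep 1. Without Marco, a choice made after the values were seen, the sums were 6055, 5017, 4676, 6190 and 4058 in URI(+/D)Hep 1 to 5 and 3198, 5267 and 4975 in URI(+/+)Hep 1 to 3. URI(+/D)Hep 4 was then highest, and URI(+/+)Hep 1 and URI(+/D)Hep 5 were lowest. URI(+/+)Hep 3, a high liver for the antiviral genes, still lay below URI(+/D)Hep 1, URI(+/D)Hep 2 and URI(+/+)Hep 2. URI(+/+)Hep 1 was the lowest liver for 7 of the 12 markers. URI(+/+)Hep 3 was lowest for 3, Marco, C1qb and C1qc, and URI(+/D)Hep 2 for 2. The median r of the 12 markers with the mean pattern of the 9 genes was 0.48, and the r of their sum, Marco included, was 0.33. The part of macrophages in the antiviral levels was not tested. Monocyte markers, 8 of 8 with values, summed to between 429 and 1142 in URI(+/D)Hep livers and between 483 and 1011 in URI(+/+)Hep livers. Plac8 was the largest of them, at 909 in URI(+/D)Hep 5. Of the 7 tested, 6 log2 fold changes were negative and 1 positive, with a median of -0.36. Limma called 0 of the 7, and DESeq2 called 1 of the 4 to which it gave an adjusted p, against 6.67% of all genes. The part of monocytes in the results above was not tested. Of the 9 markers of plasmacytoid dendritic cells, the main makers of type I interferon in blood, Ccr9, Cox6a2 and Spib were at 0 in at least 1 library, and Siglech lay between 2.90 and 6.19 normalized reads in URI(+/D)Hep livers and between 2.40 and 9.66 in URI(+/+)Hep livers, near the level of 3 reads. Their summed level, between 1106 and 1278 in URI(+/D)Hep livers and between 820 and 1206 in URI(+/+)Hep livers, was mostly Tcf4, which other liver cells also express. The 8 sinusoidal endothelial markers summed to between 2416 and 2569 in URI(+/D)Hep livers and between 1926 and 2351 in URI(+/+)Hep livers, without overlap. Stab2 was the largest of them. Of the 8, 2 had group ranges apart (25%, against 13.4% of all genes tested), and 7 log2 fold changes were positive and 1 negative. The part of sinusoidal endothelial cells in the levels above was not tested. Neutrophil markers, 9 of 9 with values, summed to between 304 and 872 in URI(+/D)Hep livers and between 543 and 1085 in URI(+/+)Hep livers. All 6 that were tested had negative log2 fold changes, with a median of -0.80. Markers of the same cells may vary together, so their shared sign is not 6 separate observations. Limma gave 2 of the 6 an unadjusted p under 0.05, against 17.7% of all genes tested, and its adjusted test called 0. DESeq2 called 1 of the 3 to which it gave an adjusted p, against 6.67% of all genes. Of the untested markers, Camp reached higher in URI(+/D)Hep livers (9.37, against 4.29 in URI(+/+)Hep livers). Ly6g and Ngp reached lower in URI(+/D)Hep livers (1.87 against 4.80, and 8.70 against 10.8). The median r of the 6 with the mean pattern of the 9 genes was -0.36, and the part of neutrophils in the results above was not tested. The groups overlapped in the sums of T and NK cell markers (49.3 to 112 in URI(+/D)Hep livers and 43.2 to 102 in URI(+/+)Hep livers), of which Cd3e, Cd3g, Cd8a and Trac were at 0 in at least 1 library.

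The genes whose pattern over the 8 livers was most like the mean pattern of the 9 genes, by Pearson's r among all genes tested, were Cpd, Gm2a, Cmpk2, Tubb4b-ps2, Hpf1, Mettl23, Aadac, Ccl9, Hnmt and Zmat2, with r between 0.96 and 0.98. Of these 10, Cmpk2 is in the list of other antiviral effectors and is a protein-coding neighbour of Rsad2 in GENCODE M21, as is Rnf144a on the other side. It stood at 43.3, 19.4, 18.4, 55.3 and 11.9 normalized reads in URI(+/D)Hep 1 to 5 and at 15.6, 48.2 and 55.8 in URI(+/+)Hep 1 to 3. URI(+/D)Hep 4 and URI(+/+)Hep 3 were highest and URI(+/D)Hep 5 lowest, as for Rsad2. Ccl9, a chemokine gene, stood at 369, 240, 253, 578 and 112 in URI(+/D)Hep 1 to 5 and at 243, 574 and 602 in URI(+/+)Hep 1 to 3. None of the 10 passed limma's test between the groups (adjusted p between 0.478 and 0.801).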

How the data were processed

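Libraries of 8 livers read the 3′ ends of transcripts and carried a molecular identifier of 6 nt, per the labels' protocols. Tools that the submitters' processing notes list are featureCounts, bcl2fastq and DESeq2, on the build GRCm39. An aligner, and whether the identifiers were used, are not given there. The deposited values are normalized signal: read counts that the authors scaled by 1 factor a library. Dividing by the smallest value above 0 returned whole reads for 100% of values (tolerance 1e-06). That value was closest to 1 in URI(+/D)Hep 5 (0.989), where the recovery is less certain, and 0.985 in URI(+/+)Hep 2. Count tests were also run without URI(+/D)Hep 5. The test was limma 3.58.1 (R 4.3.3, trend) on log2(value + 1), with Benjamini-Hochberg adjusted p-values over 13704 genes, and it was tested on simulated data. This scale understates changes of low genes. Recovered reads went into edgeR 4.0.16 and DESeq2 1.42.0. The members and lists were chosen with earlier results of these data known. Genes named beside the 9 are up to 3 per pathway list by smallest p, the 10 most like the members' mean pattern, Uri1, Mki67, Xist and 4 Y-linked genes. Promoters were matched by symbol. Some results on the pathway are not reported here.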

Additional observations from a re-analysis of the deposited data

Results flagged for a closer look

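In the URI(+/D)Hep group, 3 Y-linked genes had 1 liver far from the others by Dixon's test at its 95% critical value. In URI(+/D)Hep 1, Ddx3y stood at 1.77, Eif2s3y at 0.884 and Kdm5d at 0 normalized reads, and the nearest liver of the group had 295, 110 and 65.7. These were 3 of 41 genes examined in this way, and chance flags about 1 in 20. None of the 9 interferon response genes was among them.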

How the results depend on the processing

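Under all 23 alternatives 0 of the 9 interferon response genes was called, with the smallest adjusted p of any member at 0.222, and their median log2 fold change stayed negative (Ifit1 was not tested with a minimum mean of 50). Among settings with more than 1 liver in each group, limma gave 1 of the 9 an unadjusted p under 0.05 in the following. These were without URI(+/+)Hep 1, and without URI(+/+)Hep 1 and URI(+/D)Hep 5 together. Left-out replicates gave medians between -0.43 and -0.11, the Y-linked share as a covariate gave -0.45, and the 5 libraries holding Xist beside Y-linked transcripts gave -0.58, against -0.24 in all 8. With that covariate Isg15 had -0.85, Ifit1 -0.72, Usp18 -0.68 and Ifit3 -0.51. Signs of genes near 0 turned: without URI(+/D)Hep 5, edgeR gave 0.031 for Irf9 and 0.0018 for Ifit3, and DESeq2 0.038 and 0.011. Leaving out 1 library gave between -0.14 and 0.010 for Irf1, between -0.20 and 0.13 for Irf9 and between -0.46 and 0.028 for Ifit3. The log2 fold change of Uri1 lay between -0.13 and 0.16 with 1 library left out, was 0.19 under that covariate and 0.35 in the 5 libraries, was -0.0035 in edgeR, and was -0.020 in edgeR and -0.013 in DESeq2 without URI(+/D)Hep 5. Of the other pathway genes DESeq2 called 5 of the 72 with an adjusted p, against 6.67% of all genes. The other settings with more than 1 liver in each group called 0. Replicate numbers did not pair the livers (correlations of deviations -0.40, -0.043 and -0.27). With the replicate block, which takes URI(+/D)Hep 4 and 5 out of the difference, the median was -0.24. The motif count, 5 of 8 genes, was the same with the looser core and the whole window. Low counts limit Ifit1 most, at 24 to 77 reads.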

Other observations

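Antigen presentation genes of the interferon gamma list lay in both directions, in genes chosen with their values known. H2-D1, a class I gene, averaged 1360 ± 62.1 normalized reads in URI(+/D)Hep livers and 1812 ± 315 in URI(+/+)Hep livers, and H2-K1 averaged 1677 ± 214 and 2171 ± 222, without overlap of the groups for either. The log2 fold changes were -0.40 and -0.38 (limma adjusted p = 0.147 and 0.184). Class I genes are close copies, so reads of one may be counted in another. B2m, the light chain shared by class I molecules, averaged 1857 ± 205 in URI(+/D)Hep livers and 2290 ± 342 in URI(+/+)Hep livers (limma adjusted p = 0.276). Cd74, the class II chaperone, averaged 65.3 ± 14.3 in URI(+/D)Hep livers and 40.1 ± 12.8 in URI(+/+)Hep livers (limma adjusted p = 0.213). Limma called none of them, and DESeq2 called H2-D1 (adjusted p = 0.0369). Other antigen presentation genes of that list also differed in direction. Psmb8, Psmb9, Psmb10, Tapbp and Nlrc5 had log2 fold changes of 0.25, 0.37, 0.21, 0.047 and 0.18. H2-Aa and H2-Ab1, of class II, had 0.63 and 0.31, and Tap1 and Tap2 had -0.47 and -0.23. Limma called none of these either, and DESeq2 called Tap1 (adjusted p = 0.0298).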
